A study of Rattus norvegicus with 6 samples.

Results

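Tripartite motif (TRIM) proteins are defined by an N-terminal RING finger, B-box domains and a coiled coil, followed by a C-terminal part that differs between members and that usually binds the target. Most act as ubiquitin ligases, which attach ubiquitin to other proteins. Different members restrict viruses and relay innate immune signals, repress transcription on chromatin, or act in muscle, neurons and maturing red cells. The genes described here are the 40 genes of the authors' comparison table whose symbol is Trim followed by a digit, out of 17172 genes and loci. The rule uses the symbol alone, although it was set with earlier results of these data known. Of these, 34 passed the expression filter with 13547 genes in all, and the 6 others had 0 to 15 counts in any library.

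Their transcripts were measured in 6 ACI rats aged 6 to 8 weeks, by poly(A) RNA sequencing of the c-kit+ fraction of bone marrow. The 3 PHZ rats received phenylhydrazine, which destroys red cells and causes haemolytic anaemia, by intraperitoneal injection at 100 mg/kg, and the 3 PBS rats received an equal amount of phosphate-buffered saline. Marrow of the hind legs was taken 36 h later, and cells were enriched by a biotinylated c-kit antibody, which binds a receptor found on blood stem and progenitor cells. By the labels, 2 PHZ and 2 PBS rats were female and 1 in each group was male. The comparison asked how the cells of PHZ rats differed from those of PBS rats, and the design allows no separation of a direct action of the compound from the anaemia it produces.

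Libraries held 13196249 to 19492793 expected counts. Kit, which encodes the selected receptor, was detected in every library, at 8.36, 10.5 and 15.5 FPKM (fragments per kilobase of transcript, scaled to the library's depth) in PHZ rats and 12.9, 14.7 and 10.6 FPKM in PBS rats, while markers of mature erythroid, myeloid and lymphoid cells were also present. In 3 libraries the level of the Y-linked genes Eif2s3y and Usp9y went against the sex label: PHZ replicate 3 and PBS replicate 1, labelled female, had 55.6 and 61.1 CPM (counts scaled to the library total), and PBS replicate 2, labelled male, had 0.0615 CPM. These are called sex-discordant here, and estimates without these 3 libraries are given beside the results of the called, erythroid, corepressor and 5 most abundant members that were tested. That fit kept 2 PHZ libraries and 1 PBS library, which is assumed to vary like the PHZ ones, and no gene of 14131 was called in it, with 1480 (10.5%) at an unadjusted p under 0.05 (edgeR).

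Taken as a family, Trim transcripts made up a slightly larger share of the RNA in PHZ rats. They summed to 420.2, 469.4 and 473 FPKM in the 3 PHZ libraries and to 388, 386.7 and 355.8 FPKM in the 3 PBS libraries, so that every PHZ sum lay above every PBS sum. As a share of expected counts they took 0.121%, 0.131% and 0.133% in PHZ rats and 0.113%, 0.113% and 0.104% in PBS rats. The 5 members with the highest mean FPKM over all libraries were Trim28, Trim59, Trim10, Trim8 and Trim27. The top 5 of each single library, a set that differed between libraries, held 57.5%, 67.6% and 61.2% of the family's FPKM in PHZ rats. In PBS rats the top 5 of each library held 50.9%, 50.3% and 51.6%. Trim28 was the most abundant member in PHZ replicate 1 and in all PBS libraries, and Trim59 in PHZ replicates 2 and 3. In bulk RNA, fewer cells of a type and less RNA per cell cannot be told apart, and this holds for all levels that follow.

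**Figure D1:**
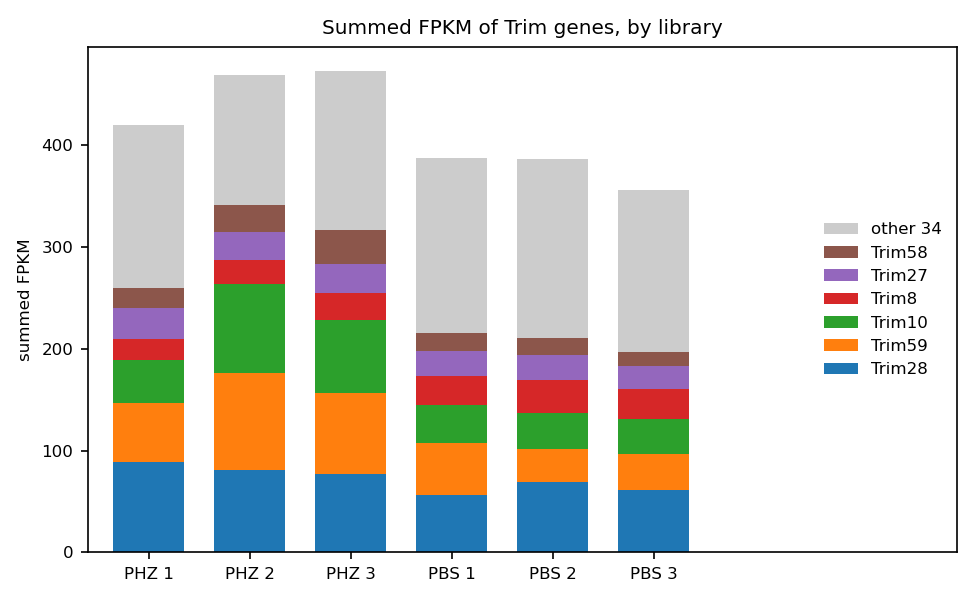
Summed FPKM of the 40 Trim genes in each library, with the 6 most abundant members stacked from the bottom in colour and the other 34 in grey. The 3 PHZ libraries on the left reach 420.2 to 473 FPKM and the 3 PBS libraries 355.8 to 388 FPKM.

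Between PHZ and PBS rats, 7 of the 34 tested members passed the threshold of an adjusted p under 0.05 (edgeR's quasi-likelihood test with Benjamini-Hochberg adjustment over all tested genes). These 7 were 20.6% of the tested members, and 13.2% of all tested genes were called. Trim15 and Trim37 rose (2 of 34, against 8.99% of all genes called higher), and Trim2, Trim5, Trim14, Trim26 and Trim34 fell (5 of 34, against 4.17% called lower). At an unadjusted p under 0.05, 17 members passed, and 34.2% of all genes did. The scaled CPM of PHZ and PBS libraries did not overlap for 19 members, 8 higher and 11 lower, or 55.9% of those tested. Over all genes 41.7% did not overlap, 22.5% higher and 19.2% lower. The median log2 fold change was -0.09 over the tested members and -0.04 over all tested genes. Only 5 members had an estimate of at least 2-fold in either direction, namely Trim15, Trim31, Trim59 and Trim10 higher and Trim2 lower, and only Trim15 and Trim2 of these were called, while 14.4% of all genes had an estimate of that size. Leaving out PBS replicate 2 or PBS replicate 3 left no gene of the whole table called by edgeR, with 3326 and 3290 genes at an unadjusted p under 0.05. Without PHZ replicate 2 only Trim15 was called (1.91% of all genes were called), and without PHZ replicate 3 only Trim15 and Trim34 (4.1% of all genes). Without PBS replicate 1, 3 members were called lower, beside 5.22% of all genes, and without PHZ replicate 1 there were 5 called higher and 3 lower, beside 8.78% and 3.83%. DESeq2 called 7 members higher and 8 lower, beside 13.4% and 10.2% of all genes.

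**Figure D2:**
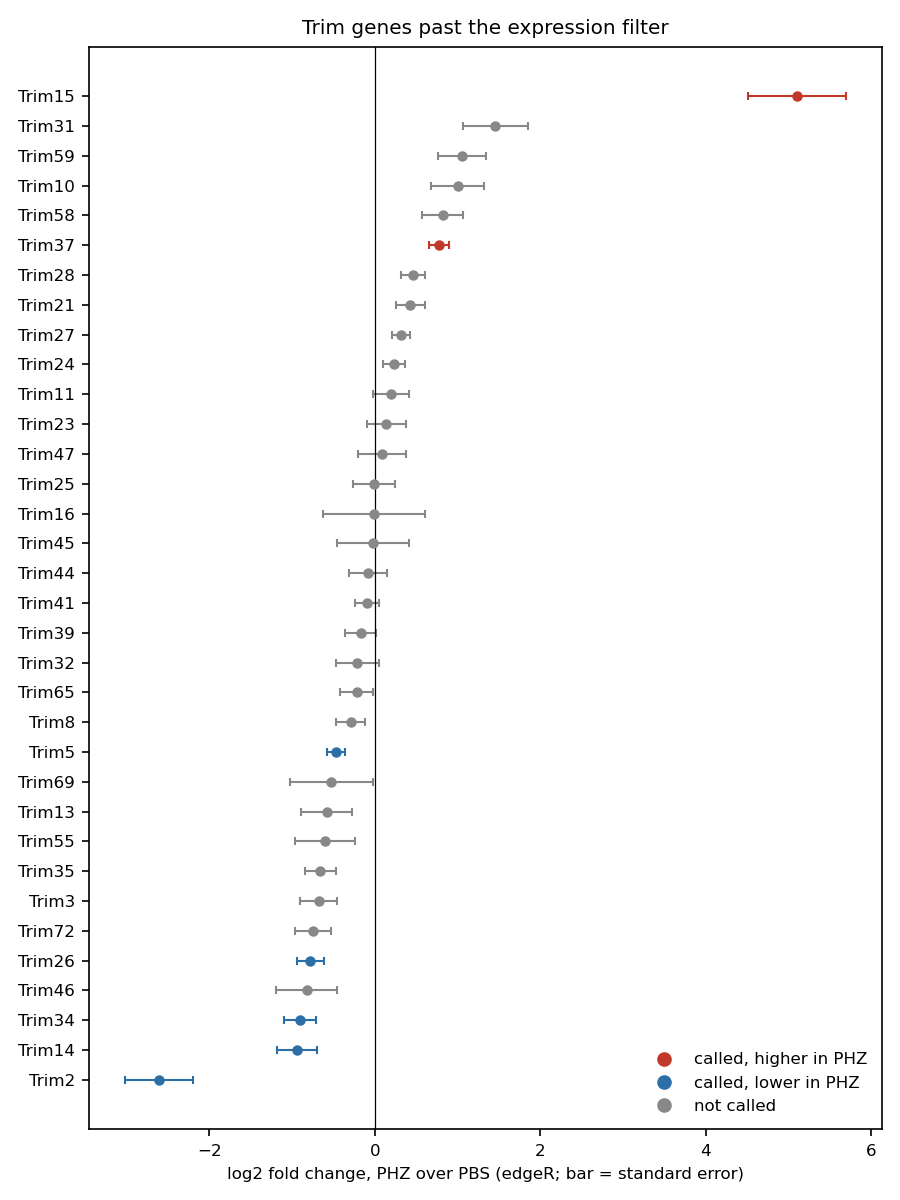
Log2 fold change of PHZ over PBS for the 34 tested Trim genes, as edgeR estimates with their standard errors, ordered by size. Red and blue points mark the 2 members called higher and the 5 called lower, and grey points the 27 not called; Trim15 stands at 5.10 and Trim2 at -2.61.

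Trim15 had the largest estimate of any member. In human cells its product is known as a protein of focal adhesions, the contacts between a cell and its matrix. It reached 3.98, 6.08 and 2.78 FPKM in PHZ rats and 0.21, 0.14 and 0.04 FPKM in PBS rats, from 294, 420 and 139 expected counts in PHZ rats and 13, 8 and 3 in PBS rats. Every PHZ library thus stood far above every PBS library, and in PBS rats the gene was close to the limit of detection, a count of 3. Trim15 averaged 16.9 ± 8.21 scaled CPM in PHZ rats and 0.484 ± 0.297 in PBS rats (SD, n = 3 each), a 34.3-fold higher level (log2 fold change 5.10 ± 0.59 SE, adjusted p = 0.0154). In PHZ rats it remained a minor member per length, with a mean of 4.28 ± 1.67 FPKM, against 67.0 ± 23.0 FPKM for its neighbour Trim10. The call was lost without PBS replicate 2 (adjusted p = 0.0969) and without PBS replicate 3 (adjusted p = 0.11). With the 3 sex-discordant libraries left out, the log2 fold change was 6.63 with an adjusted p of 0.456.

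Trim15 lies in a run of family members on chromosome 20, in the major histocompatibility region of the rat. In RefSeq's gene table of the assembly GRCr8, the order is Trim31, Trim40, Trim10, Trim15 and Trim26, then 4 class I related genes, Rpp21 and Trim39. Trim31, whose human product acts in innate signalling, had 1.67, 2.63 and 1.64 FPKM in PHZ rats and 0.95, 0.76 and 0.61 FPKM in PBS rats. The groups did not overlap, but the difference did not pass the threshold (log2 fold change 1.46 ± 0.39 SE, adjusted p = 0.0554). Along the run, the estimates were 1.46 for Trim31, 1.00 for Trim10, 5.10 for Trim15, -0.78 for Trim26 and -0.17 for Trim39, so that adjoining members differed in direction. Trim40 and the class I related genes were not analysed here. The RefSeq interval of Trim15 overlaps those of both Trim10 and Trim26, and whether counting used strand is not given in the sources used here, so reads from the overlapping stretches cannot be told apart. The Trim15 level was 9.45%, 6.96% and 3.89% of the Trim10 level in FPKM in PHZ rats, against 0.56%, 0.393% and 0.118% in PBS rats, so the 2 genes did not keep 1 ratio between the groups.

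**Figure D3:**
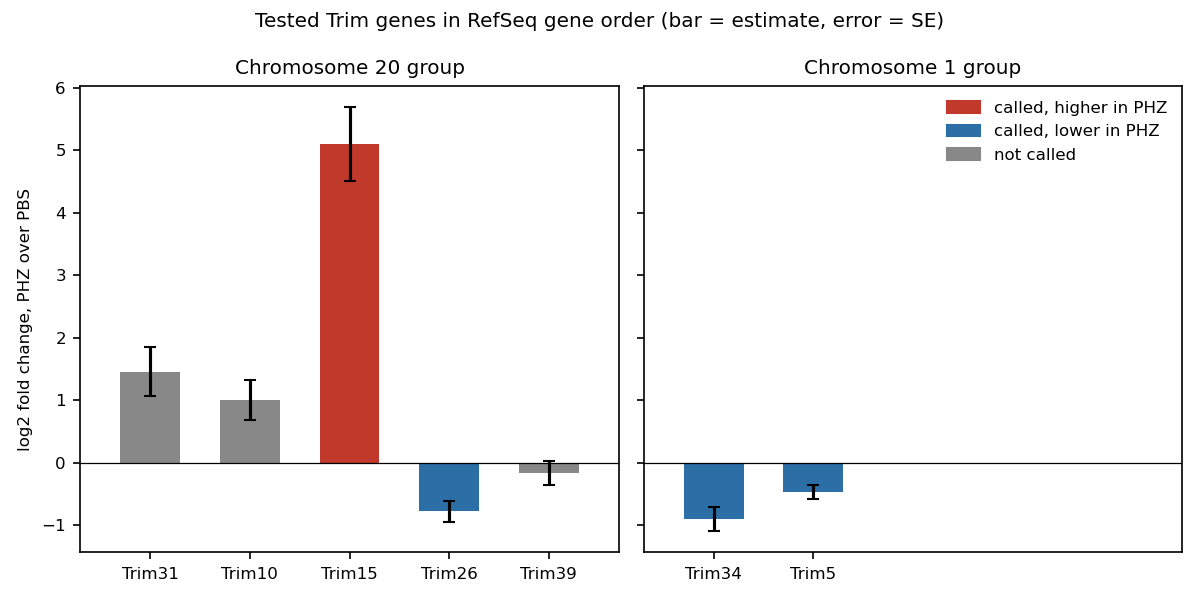
Log2 fold change of PHZ over PBS, with standard errors, of the tested Trim genes of 2 neighbouring groups in RefSeq gene order, on chromosome 20 (left) and chromosome 1 (right). Trim15 at 5.10 stands between Trim10 at 1.00 and Trim26 at -0.78, and both chromosome 1 members are lower in PHZ rats.

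Trim10 and Trim58 are among the family's members with known roles in red cell formation. Trim10 was described in mouse erythroid cells as a factor needed for their terminal maturation, and the product of Trim58 is known in mouse erythroblasts to mark the motor protein dynein for degradation around enucleation. Trim10 had 42.1, 87.4 and 71.4 FPKM in PHZ rats and 37.5, 35.6 and 33.9 FPKM in PBS rats. PHZ replicates 2 and 3 stood well above all PBS libraries, whereas PHZ replicate 1 was only just above the highest PBS library. Trim58 had 19.5, 26.7 and 33.5 FPKM in PHZ rats and 18.0, 15.9 and 13.8 FPKM in PBS rats, again with PHZ replicate 1 nearest to PBS. Neither passed the threshold, with log2 fold changes of 1.00 ± 0.32 SE for Trim10 (adjusted p = 0.0818) and 0.82 ± 0.25 SE for Trim58 (adjusted p = 0.0712). Without PHZ replicate 1 both were called, with log2 fold changes of 1.30 (adjusted p = 0.0231) and 1.05 (adjusted p = 0.0241). Among removals of 1 library, the lowest estimates were 0.67 for Trim10 without PHZ replicate 2 (adjusted p = 0.197) and 0.65 for Trim58 without PHZ replicate 3 (adjusted p = 0.177). DESeq2 called both with all 6 libraries (adjusted p = 0.0178 and 0.0259). With the 3 sex-discordant libraries left out, the estimates were 0.97 and 0.75. Of 11 tested erythroid marker genes, 5 rose (Gata1, Klf1, Tfrc, Ank1 and Epb42) and none fell, beside 8.99% of all genes called higher, with a median log2 fold change of 0.98. Their summed level, most of it globin, ranged from 8.80e+04 to 2.10e+05 CPM in PHZ rats and from 9.67e+04 to 1.94e+05 CPM in PBS rats, was lowest in PHZ replicate 1, and its part in the Trim10 and Trim58 levels was not tested.

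The promoters of these 2 erythroid members are shown to place the letters bound by GATA factors, which drive red cell genes. The windows run from 250 bases before to 50 bases after the RefSeq start site (GRCr8, at chr20:1703420-1703719 on the minus strand for Trim10 and chr10:43523154-43523453 on the plus strand for Trim58), with matches in capitals. The motifs searched for GATA factors were AGATAA or AGATAG, and TGATAA or TGATAG, and that for Krüppel-like factors, called CACC here, was CCNCNCCC, on both strands, so that a match to the minus strand shows as its reverse complement.
Trim10: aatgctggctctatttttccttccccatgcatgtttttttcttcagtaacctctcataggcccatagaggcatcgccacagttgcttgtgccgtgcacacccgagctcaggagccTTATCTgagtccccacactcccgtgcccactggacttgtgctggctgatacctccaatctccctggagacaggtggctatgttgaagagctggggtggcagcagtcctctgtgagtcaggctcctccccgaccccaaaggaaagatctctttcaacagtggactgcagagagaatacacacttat
Trim58: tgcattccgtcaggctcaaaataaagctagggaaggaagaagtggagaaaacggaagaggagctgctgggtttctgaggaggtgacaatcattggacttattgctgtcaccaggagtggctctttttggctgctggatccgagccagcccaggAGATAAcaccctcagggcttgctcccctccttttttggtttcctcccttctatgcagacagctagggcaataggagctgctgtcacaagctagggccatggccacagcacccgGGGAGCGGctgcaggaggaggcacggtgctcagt
Each window held 1 GATA match, and Trim58 also held 1 CACC match, on the minus strand. A GATA match was present in 29.9% of 27457 RefSeq promoters and in 9 of the 32 members with an entry, and a CACC match in 47.2% of promoters and 19 of the 32 members. Trim15 is among the members with no promoter entry.

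Dynein is the known target of the Trim58 product, and the 10 tested genes of dynein, dynactin and their regulator Pafah1b1 showed no called change in either direction (edgeR; a median log2 fold change of 0.29, and 9 of 10 estimates above 0). Dync1i2, the intermediate chain that the mouse protein binds, had 42.1, 36.6 and 39.4 FPKM in PHZ rats and 41.4, 39.4 and 34.3 FPKM in PBS rats (log2 fold change 0.09, adjusted p = 0.571). The groups overlapped for this gene. The scaled CPM of 5 of the 10 genes did not overlap and was higher in PHZ rats, beside 22.5% of all tested genes.

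Among the chromatin corepressors, which carry a PHD finger and a bromodomain, Trim28 was the most abundant member of the family. Its product is the partner through which zinc finger proteins with a KRAB domain silence genes and transposable elements. Trim28 had 88.4, 81.0 and 77.5 FPKM in PHZ rats and 56.0, 69.5 and 61.4 FPKM in PBS rats. All PHZ libraries exceeded all PBS libraries, but the difference did not pass the threshold (1.37-fold, log2 fold change 0.46 ± 0.14 SE, adjusted p = 0.0772), while DESeq2 called it (adjusted p = 0.0295). Trim24, a corepressor of retinoic acid receptors, had 8.82, 8.78 and 9.87 FPKM in PHZ rats and 8.03, 9.19 and 7.34 FPKM in PBS rats, groups that overlapped (log2 fold change 0.23 ± 0.13 SE, adjusted p = 0.265). Trim66 had 0, 1 and 0 counts in PHZ rats and 0, 0 and 2 in PBS rats, at or under the limit of 3 counts in every library. With the 3 sex-discordant libraries left out, the estimates for Trim28 and Trim24 were 0.43 and 0.24.

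The symbol Trim33 was not analysed here, but 3 loci numbered by the authors are described as TRIM33 in the authors' deposited table. They were added after the files were seen and are not among the 40 members. These loci had log2 fold changes of 0.13 (adjusted p = 0.723), -0.36 (adjusted p = 0.540) and -0.09 (adjusted p = 0.882), and the groups overlapped for each. The locus with the most counts of the 3 had 7.13, 4.51 and 6.95 FPKM in PHZ rats and 5.91, 4.45 and 6.96 FPKM in PBS rats, values that lay in the same range.

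Among genes for known partners of these corepressors, 5 rose in PHZ rats, beside 8.99% of all tested genes called higher. Of 5 tested partners of TRIM28, 2 rose: Cbx5, a heterochromatin protein (1.53-fold, adjusted p = 0.0370), and Hdac1, a histone deacetylase (1.64-fold, adjusted p = 0.0449). Of 7 tested partners of TRIM33, 3 rose. Supt16h and Ssrp1, the subunits of the histone chaperone FACT, rose 1.75-fold (adjusted p = 0.0201) and 1.71-fold (adjusted p = 0.0251). Tal1, a master factor of blood and red cell development, had 116.4, 165.6 and 153.3 FPKM in PHZ rats and 78.0, 56.3 and 56.9 FPKM in PBS rats, with no overlap (2.40-fold, adjusted p = 0.0268). The median log2 fold changes of the lists were 0.41 and 0.36, against -0.04 over all tested genes. Without overlap, 4 TRIM28 partners were higher and 1 lower, and 4 TRIM33 partners were higher and 2 lower. Over all tested genes these shares were 22.5% higher and 19.2% lower. The lower partners were Setdb1 (log2 fold change -0.17), Smad2 (-0.13) and Smad4 (-0.43), none of them called. Cbx1, Atf7ip, Chd3 and Chd4, also listed as TRIM28 partners, were not analysed here.

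Trim59, the second most abundant member, encodes a protein with a membrane-spanning segment that in human tumour cells is linked to growth. It had 58.7, 94.9 and 79.0 FPKM in PHZ rats and 51.0, 31.8 and 35.5 FPKM in PBS rats. The groups did not overlap, though PHZ replicate 1 and PBS replicate 1 came close to each other. The 2.08-fold difference did not pass the threshold (log2 fold change 1.05 ± 0.29 SE, adjusted p = 0.0584). DESeq2 called it (adjusted p = 0.00527), as did edgeR without PHZ replicate 1 (log2 fold change 1.27, adjusted p = 0.0327), whereas without PHZ replicate 2 the estimate was 0.80 (adjusted p = 0.152). With the 3 sex-discordant libraries left out it was 1.13 with an adjusted p of 0.527. Trim13, the other member with a membrane-spanning segment, pointed the other way at a lower level, with a mean of 2.50 ± 0.85 FPKM in PHZ rats and 3.85 ± 0.42 FPKM in PBS rats (SD, n = 3 each; log2 fold change -0.58, adjusted p = 0.225).

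Trim37 rose in PHZ rats with little spread between animals. Its product, the family's only one with a MATH domain, controls centrosome assembly and is mutated in the human growth disorder Mulibrey nanism. It had 16.3, 15.3 and 16.1 FPKM in PHZ rats and 9.98, 10.8 and 10.2 FPKM in PBS rats. The 3 PHZ values lay close together and all above the 3 PBS values. Trim37 averaged 64.2 ± 5.91 scaled CPM in PHZ rats and 37.5 ± 1.52 in PBS rats (SD, n = 3 each), a 1.71-fold rise (log2 fold change 0.78 ± 0.12 SE, adjusted p = 0.0212). The estimate was 0.72 to 0.80 without any 1 of 4 libraries whose removal ended the call, which were PBS replicate 2 (adjusted p = 0.0995), PBS replicate 3 (adjusted p = 0.114), PHZ replicate 2 (adjusted p = 0.0529) and PHZ replicate 3 (adjusted p = 0.0568). With the 3 sex-discordant libraries left out, it was 0.73 with an adjusted p of 0.504. Of its neighbours in RefSeq order, named after their values were seen, Ska2 before it, a part of the spindle attachment machinery, rose (2.08-fold, adjusted p = 0.0453), and Ppm1e after it, whose interval overlaps that of Trim37, was not called (log2 fold change 0.22, adjusted p = 0.580).

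**Figure D4:**
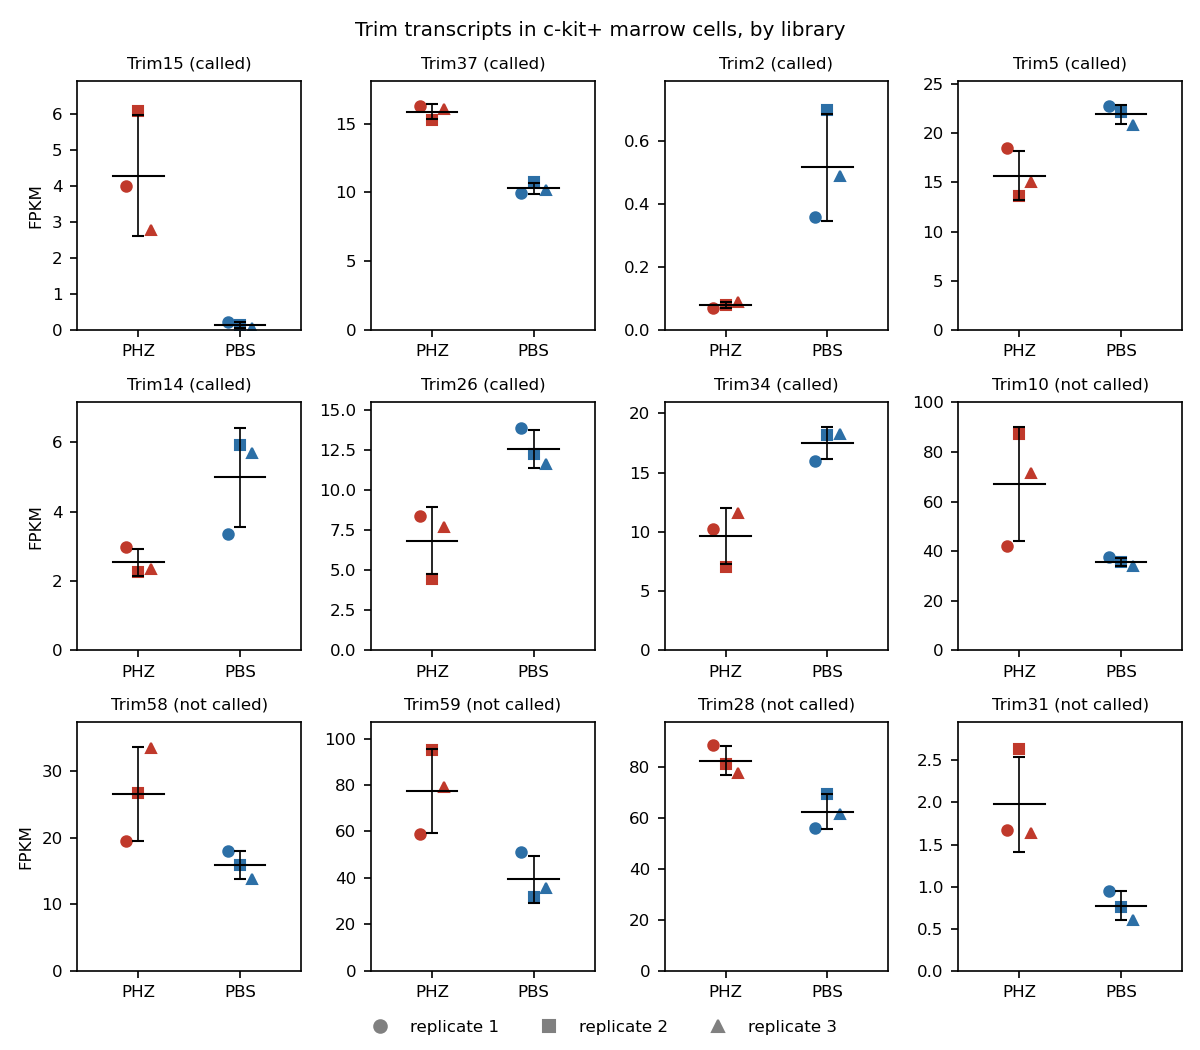
FPKM of 12 Trim genes in each library, PHZ left and PBS right in every panel, with the group mean and SD (n = 3) as bars and the replicate numbers as symbols. The 7 called members come first, and Trim10, Trim58, Trim59, Trim28 and Trim31 were not called although their PHZ and PBS values do not overlap.

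Several members with known roles in innate immunity and the restriction of viruses were lower in PHZ rats. Of 9 tested members of this group, 4 fell (Trim5, Trim14, Trim26 and Trim34) and none rose, beside 4.17% of all tested genes called lower and 8.99% called higher, with a median log2 fold change of -0.47, against -0.04 over all tested genes. The counts and median depend on this list, which leaves out Trim31 (log2 fold change 1.46) and Trim8 (-0.29). Both are described here with innate or interferon roles, and neither was called. Trim5, whose primate counterpart blocks retroviral capsids, had 18.5, 13.6 and 15.0 FPKM in PHZ rats and 22.8, 22.1 and 20.9 FPKM in PBS rats. Trim34, an interferon-induced relative that in human cells acts together with TRIM5, had 10.3, 7.01 and 11.6 FPKM in PHZ rats and 16.0, 18.2 and 18.3 FPKM in PBS rats. For both genes every PHZ library was below every PBS library and PHZ replicate 2 was the lowest. The falls were 1.39-fold for Trim5 (log2 fold change -0.47 ± 0.11 SE, adjusted p = 0.0380) and 1.88-fold for Trim34 (-0.91 ± 0.19 SE, adjusted p = 0.0324).

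Trim26, whose product acts on interferon induction downstream of viral RNA sensing, had 8.36, 4.48 and 7.73 FPKM in PHZ rats and 13.9, 12.2 and 11.6 FPKM in PBS rats. The groups did not overlap, and PHZ replicate 2 was again the lowest (1.72-fold lower, log2 fold change -0.78 ± 0.16 SE, adjusted p = 0.0319). Trim14, which in human cells lies on mitochondria with the adaptor MAVS, had 2.97, 2.27 and 2.36 FPKM in PHZ rats and 3.35, 5.92 and 5.70 FPKM in PBS rats. PBS replicate 1 was not far above PHZ replicate 1, and the adjusted p of 0.0492 was close to the threshold (1.93-fold lower, log2 fold change -0.95 ± 0.24 SE).

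These 4 calls were less stable than that of Trim15. Trim5 lost its call without any 1 of the 6 libraries, with adjusted p-values of 0.0508 (without PHZ replicate 1), 0.0912 (PHZ replicate 2), 0.0886 (PHZ replicate 3), 0.0582 (PBS replicate 1), 0.128 (PBS replicate 2) and 0.161 (PBS replicate 3). Trim14 kept its call only without PBS replicate 1 among these 6 removals, with 0.0798, 0.135 and 0.118 without PHZ replicates 1, 2 and 3, and 0.166 and 0.174 without PBS replicates 2 and 3. Trim26 kept it only without PHZ replicate 1, with 0.0656 and 0.0560 without PHZ replicates 2 and 3, and 0.0555, 0.107 and 0.126 without PBS replicates 1, 2 and 3. Trim34 kept it without PHZ replicate 3 and without PBS replicate 1, with 0.0611 and 0.0835 without PHZ replicates 1 and 2, and 0.115 and 0.134 without PBS replicates 2 and 3. All 4 estimates stayed below 0 in every one of these fits, and with the 3 sex-discordant libraries left out they were -0.51 for Trim5, -1.12 for Trim14, -0.85 for Trim26 and -1.26 for Trim34.

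The other 5 tested members of the innate group were not called, and 2 of them had estimates above 0. Trim25, the ligase that activates the viral RNA sensor RIG-I, had 21.1, 8.82 and 16.8 FPKM in PHZ rats and 15.6, 18.8 and 13.4 FPKM in PBS rats, with PHZ replicates 1 and 2 at the opposite ends of all 6 values (log2 fold change -0.01 ± 0.25 SE, adjusted p = 0.989). Trim27, a transcriptional repressor first found in a tumour fusion gene, had 31.1, 27.3 and 27.9 FPKM in PHZ rats and 24.0, 25.3 and 22.6 FPKM in PBS rats. Its groups did not overlap (log2 fold change 0.32 ± 0.11 SE, adjusted p = 0.0918, and 0.34 with the 3 sex-discordant libraries left out). Trim21, the cytosolic antibody receptor, averaged 9.61 ± 1.16 FPKM in PHZ rats and 7.50 ± 1.30 FPKM in PBS rats with overlap (SD, n = 3 each; adjusted p = 0.136). Trim35 averaged 5.24 ± 1.42 FPKM in PHZ rats and 8.50 ± 1.45 FPKM in PBS rats (adjusted p = 0.0631), and Trim65 3.51 ± 0.99 FPKM in PHZ rats and 4.23 ± 0.71 FPKM in PBS rats (adjusted p = 0.472). The 3 loci that the authors' deposited table describes as TRIM30A or similar, added after the files were seen, had estimates of -1.08, -0.25 and -0.24, and none was called (adjusted p from 0.371 to 0.499).

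Markers of lymphoid cells fell beside the innate group, and most estimates in the other non-erythroid blood cell lists were also below 0. In PHZ rats the summed level of 7 B lineage markers was 102.2 to 178.3 CPM, against 475.3 to 604.1 CPM in PBS rats, and 5 of the 7 were called lower, Cd79b, Pax5, Ebf1, Blnk and Vpreb2, beside 4.17% of all genes. Of 8 T and NK lineage markers 6 were called lower, with sums of 69.3 to 85.1 CPM in PHZ rats and 74.2 to 191.1 CPM in PBS rats. No marker of the neutrophil list (8 tested, 5184 to 9127 CPM in PHZ rats and 9891 to 2.41e+04 CPM in PBS rats) or of the monocyte and macrophage list (7 tested, 7740 to 1.41e+04 CPM in PHZ rats and 1.17e+04 to 1.52e+04 CPM in PBS rats) was called. All 8 neutrophil estimates were still below 0, with a median log2 fold change of -0.96, against -2.056 (B lineage) and -2.005 (T and NK lineage). Of the 7 monocyte and macrophage estimates, 6 were below 0 (median -0.20). All 5 tested megakaryocyte markers also had estimates below 0 (median -0.55), and none was called. Among 4 tested stem and progenitor markers, 3 estimates were below 0 and Procr was called lower, beside the same 4.17% of all genes. Over all tested genes, 52.4% of estimates were below 0. No marker of the B lineage, T and NK lineage or monocyte lists was at 0 in any library. Ltf of the neutrophil list had 0 to 3 counts. The part of these cells in the lower levels of Trim5, Trim14, Trim26 and Trim34 was not tested.

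Trim34 and Trim5 are direct neighbours on chromosome 1 in RefSeq's table, next to Trim6, which had too few reads to be tested. The start-site windows of 3 members that fell are shown with matches to an interferon response element (ISRE-like: GAAA, any 2 bases, and GAAA again) and the CACC motif on both strands in capitals. They lie at chr1:168149214-168149513 on the minus strand for Trim5, chr1:168118793-168119092 on the plus strand for Trim34 and chr20:1736262-1736561 on the minus strand for Trim26 (RefSeq, GRCr8).
Trim5: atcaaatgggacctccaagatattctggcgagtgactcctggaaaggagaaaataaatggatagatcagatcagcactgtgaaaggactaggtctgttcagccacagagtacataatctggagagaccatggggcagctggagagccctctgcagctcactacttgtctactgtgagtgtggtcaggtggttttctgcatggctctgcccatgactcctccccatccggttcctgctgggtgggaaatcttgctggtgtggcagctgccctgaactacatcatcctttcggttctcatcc
Trim34: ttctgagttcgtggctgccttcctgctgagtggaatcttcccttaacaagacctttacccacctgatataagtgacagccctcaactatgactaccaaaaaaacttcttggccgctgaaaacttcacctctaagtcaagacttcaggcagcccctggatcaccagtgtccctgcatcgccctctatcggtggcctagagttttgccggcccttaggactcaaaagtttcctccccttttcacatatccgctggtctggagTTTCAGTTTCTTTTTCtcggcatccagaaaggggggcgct
Trim26: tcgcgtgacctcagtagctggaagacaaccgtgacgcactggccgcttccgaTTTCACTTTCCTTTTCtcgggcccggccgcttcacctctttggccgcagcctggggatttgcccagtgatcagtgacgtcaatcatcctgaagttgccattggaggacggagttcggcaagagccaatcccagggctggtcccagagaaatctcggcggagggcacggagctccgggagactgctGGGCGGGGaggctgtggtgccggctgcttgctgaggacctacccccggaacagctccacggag
The ISRE-like letters occurred 2 times, overlapping, in Trim34 and in Trim26, were not in the Trim5 window, and were present in 3.77% of the 27457 promoters. Of the 32 members with an entry, 3 held them, and the other, Trim21, was not called. The GATA letters were absent from all 3 windows. Of the other called members with an entry, Trim2, which fell, held 1 GATA match, and Trim37, which rose, held none. Whether GATA matches bear on the direction of the calls was not tested.

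The RIG-I pathway, in which TRIM25 acts, was described through 11 tested genes. Only Irf7, a transcription factor that amplifies interferon production, passed the test, beside 4.17% of all tested genes called lower and 8.99% called higher. It had 28.1, 24.7 and 32.9 FPKM in PHZ rats and 99.6, 50.6 and 54.0 FPKM in PBS rats (2.29-fold lower, log2 fold change -1.19 ± 0.27 SE, adjusted p = 0.0392). The groups did not overlap, and PBS replicate 1 was well above the other PBS libraries. Over the list the median estimate was -0.30 (log2), with 9 of 11 estimates below 0 and 52.4% of all genes' estimates below 0. Ddx58, which encodes RIG-I, and its adaptor Mavs were not called (adjusted p = 0.261 and 0.379).

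Members with NHL repeats, which bind RNA or cytoskeletal proteins, had estimates below 0 in all 3 tested cases. Trim2, whose mouse product marks the light neurofilament in neurons, had 0.07, 0.08 and 0.09 FPKM in PHZ rats and 0.36, 0.70 and 0.49 FPKM in PBS rats. These were 10, 10 and 8 expected counts in PHZ rats and 39, 79 and 54 in PBS rats, so the gene was low in both groups, and the groups did not overlap. Trim2 was 6.10-fold lower in PHZ rats (log2 fold change -2.61 ± 0.41 SE, adjusted p = 0.0212), the largest fall in the family. The call was lost without PBS replicate 2 (adjusted p = 0.0995), PBS replicate 3 (adjusted p = 0.114), PHZ replicate 2 (adjusted p = 0.0619) or PHZ replicate 3 (adjusted p = 0.0547), at estimates of -2.68 to -2.36, and with the 3 sex-discordant libraries left out the estimate was -2.67. Stromal and endothelial markers summed to 54.6, 27.9 and 41.5 CPM in PHZ rats and 619, 90.3 and 80.4 CPM in PBS rats. Of the 6 tested, 2 (Pecam1 and Kdr) fell, beside 4.17% of all genes called lower, and Col1a2 was at 0 in 2 PHZ libraries. Trim2 was lowest among the PBS libraries in PBS replicate 1, where these markers were highest, and their part in its level was not tested.

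Trim3, the neuronal relative of Trim2, averaged 2.41 ± 0.62 FPKM in PHZ rats and 3.99 ± 0.45 FPKM in PBS rats without overlap (SD, n = 3 each; log2 fold change -0.68, adjusted p = 0.0818). Trim32, mutated in a human limb-girdle muscular dystrophy, averaged 1.42 ± 0.18 FPKM in PHZ rats and 1.69 ± 0.26 FPKM in PBS rats with overlap (adjusted p = 0.588). Trim46, which organises microtubules at the start of the axon, lay below 1 FPKM in all libraries and was not called (log2 fold change -0.82, adjusted p = 0.168).

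The 2 tested members known from striated muscle were not called. Both lay lower in PHZ rats without overlap, as did 19.2% of all tested genes. Trim72, a membrane repair protein of muscle, had 3.92, 2.89 and 4.64 FPKM in PHZ rats and 6.15, 7.39 and 6.35 FPKM in PBS rats (log2 fold change -0.74, adjusted p = 0.0657). Trim55, a sarcomere protein, averaged 0.37 ± 0.03 FPKM in PHZ rats and 0.59 ± 0.10 FPKM in PBS rats (SD, n = 3 each; adjusted p = 0.277). The muscle markers summed to 18.01 to 25.01 CPM in PHZ rats and 32.7 to 55.2 CPM in PBS rats. Of the 2 tested, 1 (Mylpf) fell, beside 4.17% of all genes called lower. Acta1, which encodes skeletal actin, had at most 2 counts in any library. Their part in the Trim72 and Trim55 levels was not tested.

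Trim8, the fourth most abundant member, encodes a regulator of interferon gamma and NF-kappaB signalling. It had 20.3, 23.8 and 27.4 FPKM in PHZ rats and 29.0, 32.2 and 30.2 FPKM in PBS rats. The FPKM values did not overlap, the scaled CPM values did, and the difference did not pass the threshold (log2 fold change -0.29 ± 0.18 SE, adjusted p = 0.284, and -0.46 with the 3 sex-discordant libraries left out). The remaining tested members, Trim11, Trim16, Trim23, Trim39, Trim41, Trim44, Trim45, Trim47 and Trim69, overlapped between the groups, had estimates from -0.53 (Trim69) to 0.20 (Trim11), and were not called. The 6 members not tested were Trim6, Trim9, Trim17, Trim36, Trim43a and Trim66.

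By C-terminal domain, 19 of the 34 tested members have a PRY-SPRY domain. Of these, 1 rose (Trim15) and 4 fell (the innate members above), with a median log2 fold change of -0.09, beside 20.6% of all tested members and 13.2% of all genes called; no difference between domain types was tested. The other calls were Trim37 with its MATH domain and Trim2 with its NHL repeats. Members with a PHD finger and bromodomain (2 tested), a COS box that binds microtubules (2 tested), a membrane-spanning segment (2 tested), an ARF domain (Trim23) or filamin repeats only (Trim45) had no call. In the authors' deposited table, which gives a score named Probability and a mark, only Trim15 (log2 ratio 5.04, Probability 1) and Trim31 (log2 ratio 1.36, Probability 0.973) are marked Up, none is marked Down, and 12 members have no Probability.

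TRIM ligases work with ubiquitin-conjugating enzymes, and a few of these rose in PHZ rats. Of 10 tested E1 and E2 enzymes used by RING ligases, 2 rose and none fell, beside 8.99% of all genes called higher and 4.17% lower: Ube2v2 (1.87-fold, adjusted p = 0.0198) and Ube2v1 (1.94-fold, adjusted p = 0.0344). Both are inactive partners that steer Ube2n to chains linked through a particular lysine of ubiquitin. The scaled CPM of 4 of the 10 was higher and that of 2 (Ube2d1 and Ube2d3) lower in PHZ rats without overlap. Ube2n itself had 71.8, 62.4 and 55.0 FPKM in PHZ rats and 65.1, 49.99 and 42.2 FPKM in PBS rats, with overlap (adjusted p = 0.227). Of 8 tested ubiquitin enzymes of red cell maturation that are not Trim genes, 2 rose, beside the same 8.99%: Ube2l6 (2.49-fold, adjusted p = 0.0297), which also conjugates the ubiquitin-like protein ISG15, and Ube2c (2.08-fold, adjusted p = 0.0380), the mitotic enzyme of the anaphase-promoting complex. The median log2 fold change of these 8 genes was 0.65, and 7 of them did not overlap between groups and were higher in PHZ rats, beside 22.5% of all tested genes. Family members that carry other names, Mid2 and Mefv, were tested and not called (adjusted p = 0.460 and 0.205).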

How the data were processed

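The authors deposited 1 table per rat with an expected count and an FPKM value per gene, per the file headers; the submitters' processing notes name HISAT, GATK, RSEM and the build rn6, without roles or versions. In their deposited comparison, the authors give for each gene a log2 ratio (PHZ over PBS) and, as a score, a Probability. Unlisted genes were set to 0. Of the listed expected counts, 72.8% to 74.1% were whole.

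Expected counts were rounded and tested with edgeR 4.0.16 under R 4.3.3, using TMM scaling, the filterByExpr default with groups, robust glmQLFit and glmQLFTest, and treatment alone as the term, with Benjamini-Hochberg adjustment over all tested genes and a threshold of 0.05. The size of each log2 fold change divided by the root of its F statistic is the standard error (SE). Scaled CPM values use TMM; sums of marker lists and Y-linked levels are CPM per library total. With 4 residual degrees of freedom and a biological coefficient of variation of 35.2%, precision is limited. Alternatives used DESeq2 1.42.0 and limma 3.58.1 on log2(FPKM + 0.1) and log2(FPKM + 1), keeping genes over 0.1 FPKM in at least 3 libraries; fold changes on that scale understate the change of low genes. The tests were checked on simulated data.

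Replicates differed by more than sampling noise (chi-square per degree of freedom 48.3 to 177), and all were kept apart. Within PHZ, log2 CPM correlated at 0.915 to 0.941 (Pearson), and within PBS at 0.911 to 0.951. The limit that a count of 0 allows, 3 counts, is 0.154 to 0.227 CPM and covers counting error only. Each library is 1 rat. The edgeR p-values weigh the group difference against the spread between these rats, with each gene's spread moderated over all tested genes.

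The members and all lists were chosen with earlier results of these data known. Named were every called member, the erythroid and PHD-bromodomain members, Trim15, the 5 members with the highest mean FPKM, and the called partner genes with the smallest p, at most 3 a direction; other members are given in groups, and those with their own values among them were named to complete a group. Promoters are RefSeq's (GRCr8), matched by gene ID for 32 of 40 members. All 40 gene IDs were found in the RefSeq gene table, which was used for names, gene order and which neighbouring intervals overlap. A gene of 1 marker list is not reported here, and that list's values were computed without it.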

Additional observations from a re-analysis of the deposited data

How the results depend on the processing

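All 14 named members kept the sign of their estimate in each of 14 alternatives. Of these 196 values, 131 stayed on the same side of the threshold, 56 lost a call and 9 gained one. DESeq2 called 3390 genes in place of 1783, and 7 Trim members higher and 8 lower in place of 2 and 5. It added Trim10, Trim28, Trim31, Trim58 and Trim59 to the higher members and Trim3, Trim35 and Trim72 to the lower ones. Without the filter on low counts, 3 members were called lower, beside 2.57% of all genes (Trim5 and Trim14 were lost). With limma on log2(FPKM + 0.1) and on log2(FPKM + 1) it was 1 (Trim34), beside 2.34% and 2.62% of all genes, and Trim59 was added to the higher members. A covariate for the labelled sex left 928 genes and 3 lower members called, with 1.79% of all genes lower. The Y-linked levels went against the label in 3 libraries, so this covariate does not adjust for sex as read from RNA. By those levels, PHZ replicates 2 and 3 and PBS replicate 1 carried Y transcripts (49, 55.6 and 61.1 CPM), an uneven split between the groups. Leaving out 1 library gave 0 to 1744 genes, 0 to 5 higher members and 0 to 3 lower members. With the 3 sex-discordant libraries left out, edgeR called 0 genes, 0 members higher and 0 lower, with 1 and 3 members at an unadjusted p under 0.05.

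Deviations from the group mean correlated at 0.21, 0.06 and 0 between same-numbered PHZ and PBS libraries. Between differently numbered ones the correlations were -0.17 to 0.15. These weak values do not settle whether the numbers mark a pairing. With the replicate number as a block, edgeR called 0 genes and 0 members in either direction, with 4641 genes, 8 higher and 8 lower members at an unadjusted p under 0.05. Trim15 had log2 fold changes from 2.18 to 6.63 over all alternatives and adjusted p-values from 7.04e-16 to 0.456, and kept its call in 10 of 14. Trim34 and Trim37 kept theirs in 8, Trim2 in 6, Trim26 in 5, Trim14 in 3 and Trim5 in 2. The low level of Trim15 and Trim2 in 1 group limits the precision of their fold changes. The cause of these changes was not tested.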
